A study of Mus musculus with 12 samples.

Results

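The Hox genes encode homeodomain transcription factors that record where along the body or limb a cell arose. They were examined here in primary embryonic fibroblasts of 4 Sos genotypes. Members were all genes of the array annotation named Hoxa, Hoxb, Hoxc or Hoxd with a paralog number, and the choice used no measured value. This gave 33 of the 39 Hox genes of the RefSeq gene table, among 19505 genes tested, with 8 in cluster A, 9 in B, 9 in C and 7 in D, each read by 1 probe set. The other Hox genes were not analysed here.

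The cells were fibroblasts of strain C57/BL6 taken from E13.5 embryos, kept at low passage in medium with serum and harvested while growing below confluence. All 12 cultures, the wild type (WT) ones included, had received 4-hydroxytamoxifen for 12 days, and 3 arrays each represent WT, Sos1KO, Sos2KO and Sos1/2DKO cultures. Sos1 and Sos2 encode exchange factors that load RAS with GTP, so the comparison asks which transcripts depend on either gene or on both. The labels name neither the recombined alleles nor a Cre driver, and they do not say which part of the embryo was used or which embryo gave which culture. P-values therefore measure the spread between these cultures.

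In the embryo the order of Hox genes along a cluster matches where and when they are switched on, with low paralog numbers active towards the head and high ones towards the tail. Genes of the A and D clusters with the highest paralog numbers also pattern the limb from shoulder or hip to digits. Fibroblasts in culture keep much of the Hox pattern of their place of origin, a state held by Polycomb and Trithorax chromatin proteins, and HOX proteins bind DNA together with PBX and MEIS cofactors.

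The labels were checked against the deleted genes before the Hox values were read. Mean log2 signal of Sos1 was 7.27 ± 0.12 (SD, n = 3) for Sos1KO and 7.52 ± 0.40 for Sos1/2DKO cultures, below the 9.08 ± 0.21 of WT and the 8.98 ± 0.35 of Sos2KO. For Sos2 it was 7.74 ± 0.19 (Sos2KO) and 7.86 ± 0.19 (Sos1/2DKO), below 8.88 ± 0.31 (WT) and 8.88 ± 0.15 (Sos1KO). All 9 fibroblast markers measured lay above the control probe level, with array means from 10.23 to 11.16. Some array properties crossed the groups. A bacterial spike-in transcript, Dap, was high on 5 arrays. These were every Sos2KO array, the replicate 3 array of Sos1KO and the replicate 1 array of Sos1/2DKO. Expression of Y-linked genes marked 3 arrays of Sos1/2DKO, 2 of Sos2KO and 1 each of Sos1KO and WT.

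Promoter sequence is shown for Hoxd10, the 1 member called in any comparison, and for Hoxd13 and Hoxd11 of the same cluster. These 2 were added after their values were seen because they had the largest differences between Sos1/2DKO and WT. Each stretch holds 250 bases before and 50 bases after an annotated start, from RefSeq on build GRCm38.p6, and is written 5′ to 3′ on the strand of the gene. Hoxd10 lies at chr2:74691641-74691940 and Hoxd13 at chr2:74667975-74668274, both on the plus strand, with capitals marking each CG dinucleotide. The Hoxd11 stretch is the upstream of its 2 listed starts, chr2:74679308-74679607 on the plus strand, with capitals marking a CDX match (CATAAA, the reverse complement of TTTATG) and an AP-1 match (TGACTCA). Of the 2 starts only this stretch held a match to a motif searched here.
Hoxd10: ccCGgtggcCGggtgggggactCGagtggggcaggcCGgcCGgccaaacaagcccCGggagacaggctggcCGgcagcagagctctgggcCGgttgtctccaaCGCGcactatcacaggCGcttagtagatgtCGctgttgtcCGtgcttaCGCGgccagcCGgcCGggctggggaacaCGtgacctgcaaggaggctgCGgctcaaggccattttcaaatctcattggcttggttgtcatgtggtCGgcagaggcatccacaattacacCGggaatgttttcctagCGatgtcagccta
Hoxd13: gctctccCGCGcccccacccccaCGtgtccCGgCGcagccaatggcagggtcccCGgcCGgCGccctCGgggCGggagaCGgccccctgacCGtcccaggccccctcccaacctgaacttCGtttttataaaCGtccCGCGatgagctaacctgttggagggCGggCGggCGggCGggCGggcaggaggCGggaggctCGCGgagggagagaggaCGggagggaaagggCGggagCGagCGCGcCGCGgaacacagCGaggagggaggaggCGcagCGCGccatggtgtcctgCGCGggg
Hoxd11: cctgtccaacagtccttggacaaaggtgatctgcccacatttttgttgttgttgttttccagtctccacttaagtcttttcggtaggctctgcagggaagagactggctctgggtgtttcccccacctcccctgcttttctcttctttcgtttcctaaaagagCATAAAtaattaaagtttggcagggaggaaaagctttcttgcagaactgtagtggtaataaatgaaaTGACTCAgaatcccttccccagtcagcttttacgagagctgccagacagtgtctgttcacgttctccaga

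These promoters are rich in CG dinucleotides, with 22 in Hoxd10 and 37 in Hoxd13, while the upstream Hoxd11 stretch held 4 and its other start, chr2:74682073-74682372, held 25. Promoter entries existed for 17 of the 33 members, giving 19 stretches with a median of 20 CG dinucleotides, against a median of 7 over all 32851 promoters of the same length. The motif of AP-1 factors, which act below RAS and ERK, was searched on both strands as TGANTCA and occurred in 1 of the 19 stretches (5.26%) and in 7.81% of all promoters. That 1 was the upstream Hoxd11 entry. The ETS motif CCGGAAG occurred in 0 of 19 and in 8.86% of all promoters. The CDX motif TTTATG, after factors that switch on trunk Hox genes, occurred in 2 of 19 (10.5%), Hoxd11 and Hoxb8, and in 11.9% of all promoters. A match describes these letters only.

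Members of all 4 clusters read above a control level in these cultures. As a guide to weak signal, the 75th percentile of 5222 negative control probe sets lay between 5.01 and 5.76 on the log2 scale across arrays. On all 12 arrays 20 of the 33 members exceeded it, 11 did so on some arrays, and Hoxb13 and Hoxc11 did so on 0. By mean level 30 of the 33 members exceeded this guide, and so did 12910 of all 19505 genes. Background probe sets of high GC content averaged 7.55 to 8.89 per array, so passing the guide does not show that a gene is expressed. Members near the head end exceeded the guide, such as Hoxa2, which gives cells of the second pharyngeal arch their identity (WT 7.59 ± 0.32), and Hoxb2 (8.54 ± 0.20). Trunk members such as Hoxc6 (10.02 ± 0.38), Hoxc8 (9.23 ± 0.24) and Hoxb7 (8.46 ± 0.05) exceeded it too, as did limb members such as Hoxa10 (8.09 ± 0.28). Levels of different probe sets carry different probe responses, so each gene is read across arrays only. In bulk cultures, fewer cells that express a gene and less RNA per cell cannot be told apart.

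**Figure D1:**
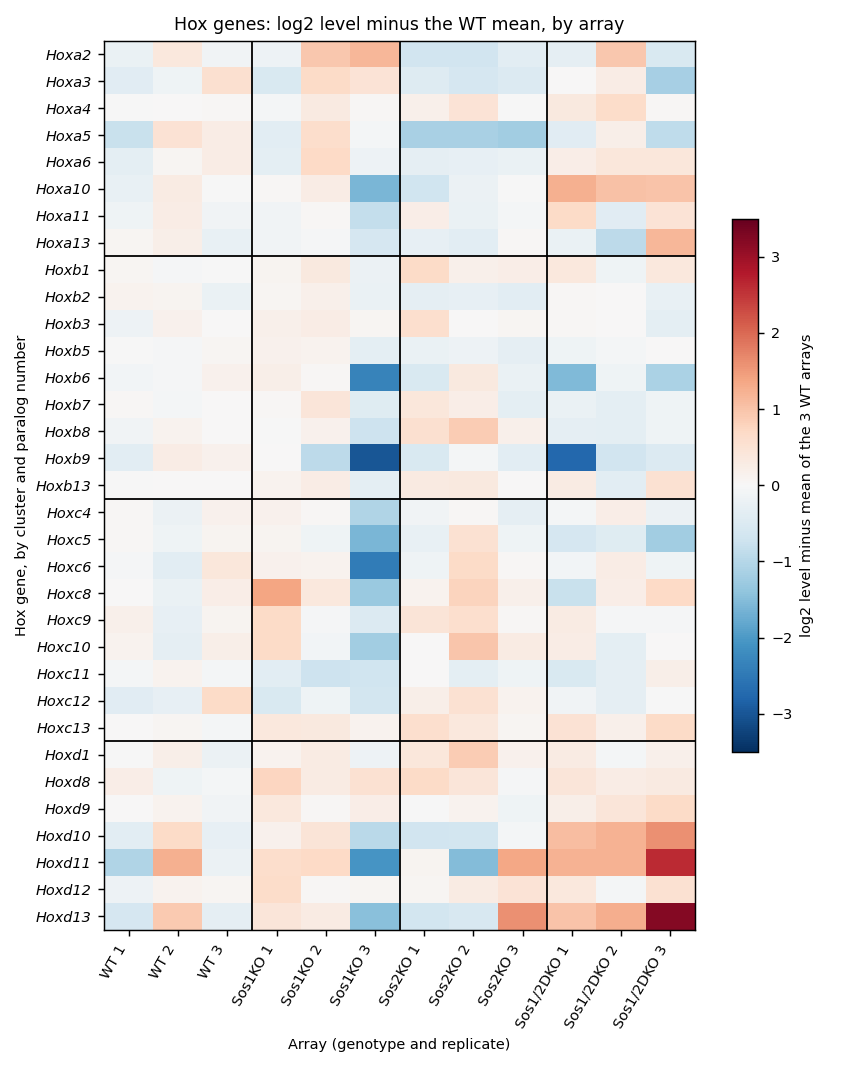
Log2 level of each of the 33 Hox genes (rows, by cluster and paralog number) on each of the 12 arrays (columns, by genotype), minus the mean of the 3 WT arrays. Red is higher and blue lower than WT. The Sos1KO replicate 3 column is blue from Hoxb6 to Hoxc10, and Hoxd10, Hoxd11 and Hoxd13 are red on the 3 Sos1/2DKO arrays.

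Few Hox differences between genotypes passed the threshold. Called means an adjusted p under 0.05 from limma with Benjamini-Hochberg adjustment over 19505 genes. Between Sos1/2DKO and Sos2KO, 1 of 33 members was called, Hoxd10, which was higher, where 6.14% of all genes were called, 3.33% as higher and 2.8% as lower. In the other 8 comparisons 0 of 33 members were called. The share of all genes called was 5.94% for Sos1/2DKO against WT, 0.62% for Sos1KO against WT, 4.29% for Sos1KO against Sos2KO and 10.3% for the main effect of Sos1 deletion (Sos1KO and Sos1/2DKO against WT and Sos2KO). Of those for Sos1KO against Sos2KO, 2.8% were higher and 1.49% lower. The share was 0.00513% for Sos1/2DKO against Sos1KO and for the main effect of Sos2 deletion, and 0% for Sos2KO against WT and for the interaction of the 2 deletions.

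At an unadjusted p under 0.05 the members counted 5 for Sos1/2DKO against WT (19.8% of all genes), 4 against Sos1KO (7.2%) and 7 against Sos2KO (22%). There were 2 for Sos1KO against WT (11.1%), 3 for Sos2KO against WT (13.9%) and 5 for Sos1KO against Sos2KO (20.9%). The main effect of Sos1 deletion gave 8 (23%), that of Sos2 deletion 2 (15.8%) and the interaction 2 (4.93%). The share of members lay below that of all genes in 6 of these 9 comparisons.

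Hoxd10, which helps to specify the lumbar spinal cord and the hind limb, was high on all 3 Sos1/2DKO arrays. Its log2 levels were 6.01, 6.16 and 6.53 in Sos1/2DKO and 4.27, 4.29 and 4.88 in Sos2KO. They were 4.58, 5.60 and 4.65 in WT and 5.08, 5.40 and 3.99 in Sos1KO. The Sos1/2DKO arrays thus lay above all 9 others, while the other 3 groups overlapped. Hoxd10 was 3.36-fold higher in Sos1/2DKO than in Sos2KO (log2 fold change 1.75, SE 0.35, limma adjusted p = 0.0151). Against WT it was 2.44-fold higher (1.29, SE 0.35, limma adjusted p = 0.0521) and against Sos1KO 2.65-fold higher (1.41, SE 0.35, limma adjusted p = 0.548), and neither passed.

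Hoxd10 exceeded the control level on all 3 Sos1/2DKO arrays, on 1 WT and 1 Sos1KO array and on 0 Sos2KO arrays, so the size of these differences is uncertain. The call against Sos2KO ended without Sos2KO replicate 1 (1.65, limma adjusted p = 0.0671) or replicate 2 (1.65, limma adjusted p = 0.0603). It also ended with array weights (1.75, limma adjusted p = 0.0531), with the spike-in as a term (1.22, limma adjusted p = 0.118) and with the high-GC background as a term (1.63, limma adjusted p = 0.107). On the arrays with the spike-in alone, which hold 1 Sos1/2DKO array, the difference from Sos2KO was 1.53. The difference from WT passed without WT replicate 2 (1.61, limma adjusted p = 0.0325), with the spike-in as a term (1.55, limma adjusted p = 0.0201), without dim genes (limma adjusted p = 0.0414) and with the 2 groups alone (limma adjusted p = 0.0493).

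Hoxd13, which shapes the digits, gave the largest difference between Sos1/2DKO and WT of any member. Its log2 levels were 7.08, 7.36 and 9.31 in Sos1/2DKO and 5.49, 7.01 and 5.77 in WT. Sos1KO arrays read 6.51, 6.39 and 4.64, and Sos2KO arrays 5.44, 5.52 and 7.70. The Sos1/2DKO arrays lay above every WT and Sos1KO array, but Sos2KO replicate 3 exceeded 2 of them. Hoxd13 was 3.56-fold higher in Sos1/2DKO than in WT (1.83, SE 0.72, limma adjusted p = 0.178), with 2.07 against Sos1KO (limma adjusted p = 0.608) and 1.70 against Sos2KO (limma adjusted p = 0.188). Without Sos1/2DKO replicate 3 the difference from WT was 1.14, the lowest over the alternatives.

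Hoxd11, needed for the forearm bones together with Hoxa11, varied most among cultures of 1 genotype. It read 7.33, 7.34 and 8.72 in Sos1/2DKO and 5.06, 7.37 and 5.92 in WT. In Sos1KO it read 6.74, 6.83 and 4.06, and in Sos2KO 6.22, 4.59 and 7.46. WT replicate 2 and Sos2KO replicate 3 reached the Sos1/2DKO range, so those groups overlap. The log2 fold change was 1.68 against WT (SE 0.84, limma adjusted p = 0.291), 1.92 against Sos1KO (limma adjusted p = 0.682) and 1.71 against Sos2KO (limma adjusted p = 0.259), and none passed. Without Sos1KO replicate 3 the value against Sos1KO was 1.01, and without Sos2KO replicate 2 that against Sos2KO was 0.95. With the spike-in as a term the value against Sos2KO was 0.56, and that of Hoxd13 was 0.68.

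Hoxd11 and Hoxd13 ordered the arrays alike. The 5 highest arrays were the same for both genes, namely the 3 Sos1/2DKO arrays, Sos2KO replicate 3 and WT replicate 2, and the 5 lowest were shared as well. Sos1/2DKO replicate 3 was the highest and Sos1KO replicate 3 the lowest of the 12 arrays for Hoxd10, Hoxd11 and Hoxd13. In RefSeq the gene spans of Hoxd10 and Hoxd11 overlap, and the probe positions were not known, so these 2 signals may share transcripts.

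The other HoxD members differed less, and are given here after their values were seen. Hoxd9 read 5.74, 5.95 and 6.21 in Sos1/2DKO against 5.53, 5.64 and 5.41 in WT (0.44, SE 0.16, limma adjusted p = 0.146), and Hoxd8 had a log2 fold change of 0.34 (limma adjusted p = 0.359). Their Sos1/2DKO and WT arrays did not overlap. Hoxd12, between Hoxd11 and Hoxd13 in the cluster, differed by 0.28 and the head-end member Hoxd1 by 0.13, with overlapping arrays. All 7 HoxD members had a log2 fold change above 0 in Sos1/2DKO against WT, with a median of 0.44, where the median over all genes was 0.05. None of the 7 was called. Against Sos2KO 4 of the 7 were above 0 and against Sos1KO 6 of the 7.

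**Figure D2:**
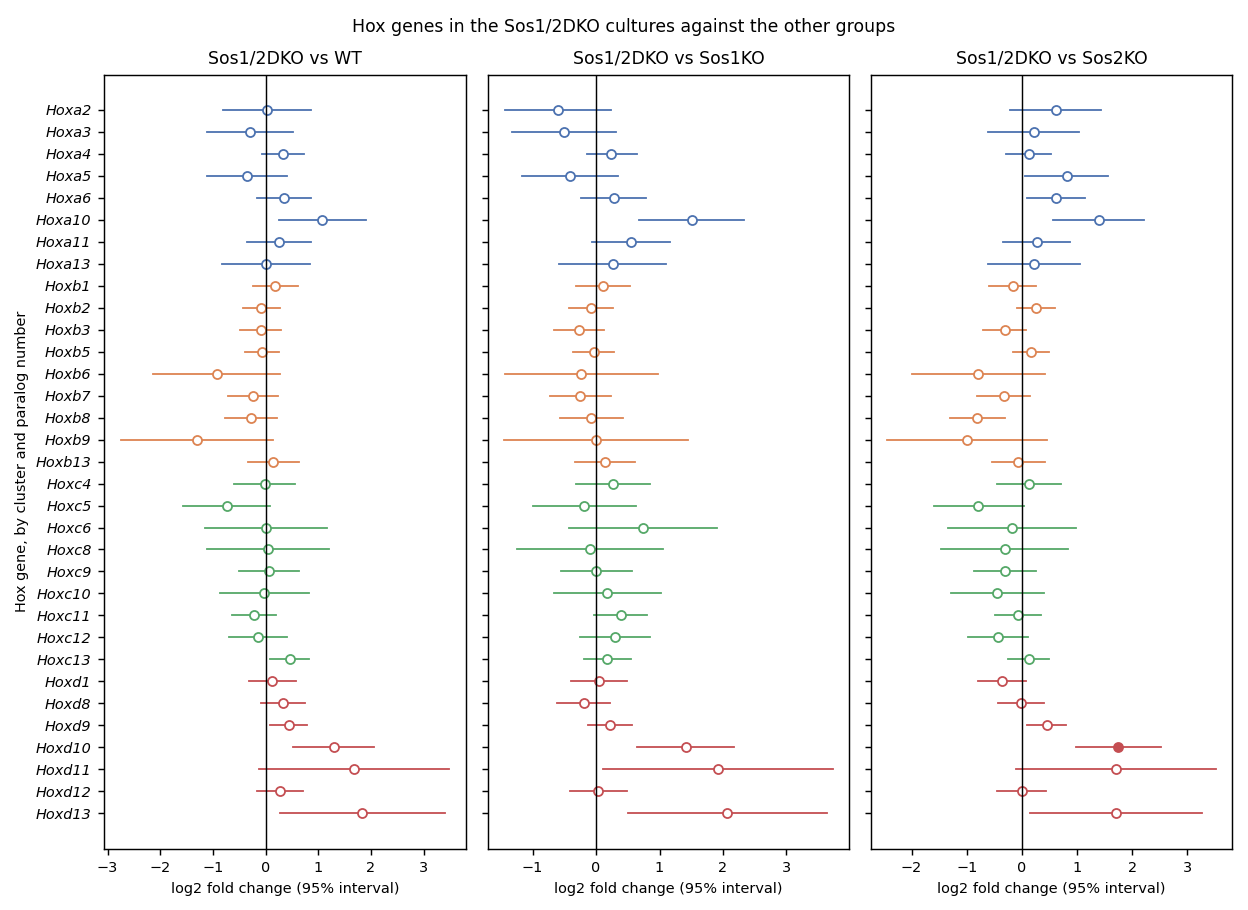
Log2 fold change of each Hox gene in Sos1/2DKO against WT, Sos1KO and Sos2KO (horizontal axis, with 95% intervals from limma), by cluster in colour. A filled point is called at an adjusted p under 0.05, which holds for Hoxd10 against Sos2KO at 1.75. Hoxd11 and Hoxd13 have the highest values against WT and Sos1KO, with wide intervals, Hoxd10 has the highest against Sos2KO, and Hoxa10 is above 0 in all 3 panels.

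Hoxa10, which patterns the upper segment of the limbs and the uterus, was the HoxA member with the largest difference. Its log2 levels were 9.33, 9.12 and 9.08 in Sos1/2DKO and 7.82, 8.39 and 8.07 in WT. Sos1KO arrays read 8.14, 8.36 and 6.50, and Sos2KO arrays 7.40, 7.88 and 8.08. The Sos1/2DKO arrays lay closely together and above all 9 others, well clear of the control level. The difference was 1.08 against WT (2.12-fold, SE 0.38, limma adjusted p = 0.128), 1.39 against Sos2KO (2.61-fold, limma adjusted p = 0.0503) and 1.51 against Sos1KO (2.85-fold, limma adjusted p = 0.548). None passed in the fit of all 4 groups. In fits of the 2 groups alone it passed against WT (limma adjusted p = 0.0241) and Sos2KO (limma adjusted p = 0.0153). Against Sos2KO it also passed with cyclic loess (1.38, limma adjusted p = 0.0479) and without dim genes (limma adjusted p = 0.0400). The value against Sos1KO was 0.93 without Sos1KO replicate 3, and that against Sos2KO was 0.88 with the spike-in as a term.

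The other posterior HoxA members, given after their values were seen, had smaller mean differences in the Sos1/2DKO group. Hoxa11 differed from WT by 0.25 (limma adjusted p = 0.675). Hoxa13, active in hands, feet and the hindgut, read 6.02, 5.34 and 7.40 in Sos1/2DKO against 6.32, 6.45 and 5.98 in WT, a difference of 0.00. Its highest array of all 12 was Sos1/2DKO replicate 3, the array highest for Hoxd13, and its lowest was Sos1/2DKO replicate 2.

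The anterior HoxA members Hoxa5 and Hoxa2 had their lowest group mean in Sos2KO and their highest in Sos1KO. Hoxa5, which is needed for lung and neck development, read 7.23, 7.22 and 7.13 in Sos2KO and 7.58, 8.87 and 8.63 in WT. It read 7.99, 8.98 and 8.28 in Sos1KO and 7.97, 8.56 and 7.48 in Sos1/2DKO. All Sos2KO arrays lay below the other 9 and close together, while the other groups overlapped. Hoxa5 was 2.25-fold lower in Sos2KO than in WT (-1.17, SE 0.35, limma adjusted p = 0.282) and 2.34-fold higher in Sos1KO than in Sos2KO (1.22, SE 0.35, limma adjusted p = 0.0669). Sos1KO against Sos2KO passed with array weights (1.37, limma adjusted p = 0.0336) and with the 2 groups alone (limma adjusted p = 0.0429).

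Hoxa2 read 6.91, 6.93 and 7.22 in Sos2KO, 7.37, 7.96 and 7.46 in WT, 7.41, 8.52 and 8.75 in Sos1KO and 7.28, 8.54 and 7.06 in Sos1/2DKO. The Sos2KO arrays lay below every WT and Sos1KO array but overlapped with Sos1/2DKO. Its log2 fold change was -0.58 in Sos2KO against WT (limma adjusted p = 0.512) and 1.21 in Sos1KO against Sos2KO (SE 0.39, limma adjusted p = 0.0923). The latter passed without Sos1KO replicate 1 (1.62, limma adjusted p = 0.0362) and with array weights (1.38, limma adjusted p = 0.0181). On the arrays with the spike-in it was 1.73, with replicate 3, the array of highest Hoxa2, as the only Sos1KO array. Of the 8 HoxA members, 7 were below 0 in Sos2KO against WT, with a median of -0.29, where 9238 of 19505 genes were (median 0.02). In Sos1/2DKO against Sos2KO 8 of 8 were above 0, with a median of 0.44, where 10104 of 19505 genes were (median 0.01). Both counts use the same Sos2KO arrays. In RefSeq the gene span of Hoxa3 overlaps those of Hoxa4, Hoxa5 and Hoxa6, so these signals may share transcripts. Macrophage markers, of which 13 of 14 exceeded the control level, had array means of 5.16 to 5.98 in Sos2KO and 5.49 to 6.33 in Sos1/2DKO. These means were 5.92 to 7.70 in WT and 6.36 to 7.31 in Sos1KO. The part of macrophages in the HoxA differences was not tested.

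Of the HoxB members of the trunk, Hoxb9 and Hoxb6 were lowest on the Sos1KO replicate 3 and Sos1/2DKO replicate 1 arrays. In Sos1/2DKO against WT 7 of the 9 HoxB members were below 0 (median -0.09), where 8312 of 19505 genes were (median 0.05). Hoxb6, Hoxb7, Hoxb8 and Hoxb9 read lower on every Sos1/2DKO array than on any WT array, as did 12.6% of all genes. Hoxb9, which patterns the rib cage, read 7.43, 8.06 and 7.95 in WT and 7.28, 7.75 and 7.45 in Sos2KO. It read 7.83, 6.90 and 4.81 in Sos1KO and 5.06, 7.15 and 7.32 in Sos1/2DKO. The low values of Sos1KO replicate 3 and Sos1/2DKO replicate 1, both under the control level, made most of the group differences. Against WT the log2 fold change was -1.30 in Sos1KO (SE 0.67, limma adjusted p = 0.535) and -1.30 in Sos1/2DKO (limma adjusted p = 0.306). With the low array left out, the Sos1KO difference was -0.45 and the Sos1/2DKO difference -0.58, which are also the values on the arrays without the spike-in.

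Hoxb6 was lowest on the same 2 arrays, with Sos1/2DKO replicate 3 next. It read 6.31, 6.37 and 6.55 in WT, 5.87, 6.76 and 6.18 in Sos2KO, 6.62, 6.44 and 4.06 in Sos1KO and 4.87, 6.27 and 5.29 in Sos1/2DKO. Only 1 of the 3 Sos1/2DKO arrays exceeded the control level. The difference was -0.70 in Sos1KO against WT (limma adjusted p = 0.817), which turned to 0.12 without Sos1KO replicate 3, and -0.93 in Sos1/2DKO against WT (SE 0.55, limma adjusted p = 0.383).

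Hoxb8, known from the trunk and from microglia, was highest in Sos2KO. Its levels were 7.84, 8.16 and 7.45 in Sos2KO, 7.15, 7.40 and 7.30 in WT, 7.27, 7.43 and 6.56 in Sos1KO and 6.97, 6.93 and 7.12 in Sos1/2DKO. All 3 Sos2KO arrays lay above the other 9. The log2 fold change was 0.53 in Sos2KO against WT (SE 0.23, limma adjusted p = 0.337), -0.81 in Sos1/2DKO against Sos2KO (limma adjusted p = 0.0551) and -0.73 in Sos1KO against Sos2KO (limma adjusted p = 0.0871). The value against WT was 0.96 with the spike-in as a term and 0.10 with the high-GC background as a term. The remaining HoxB members, Hoxb1, Hoxb2, Hoxb3, Hoxb5, Hoxb7 and Hoxb13, stayed between -0.24 and 0.18 in Sos1/2DKO against WT, and Hoxb5 had the smallest residual SD of the 33 at 0.15.

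**Figure D3:**
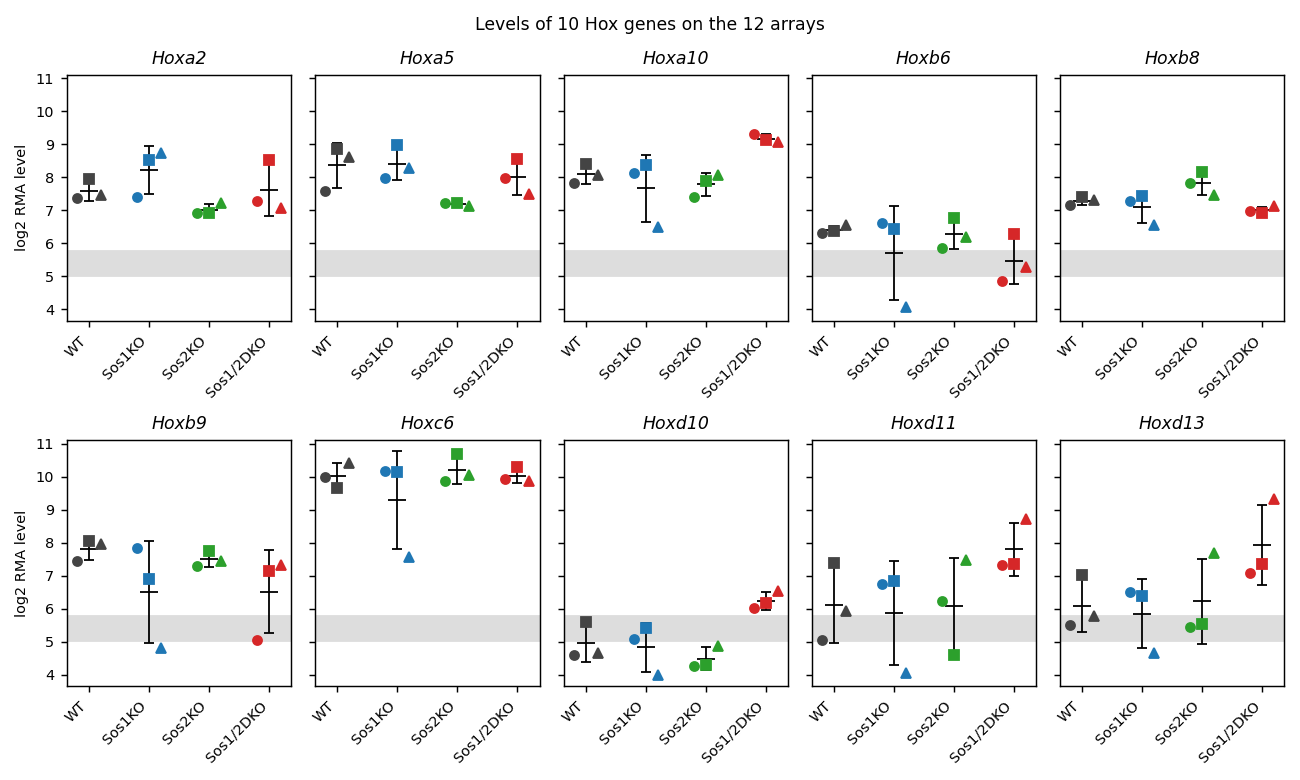
Log2 RMA level (vertical axis) of 10 Hox genes by genotype. Points are arrays (circle, square and triangle for replicates 1, 2 and 3), black bars are the group mean ± SD of 3 arrays, and the grey band spans the control level of the 12 arrays, 5.01 to 5.76. Hoxa10 and Hoxd10 are high on all 3 Sos1/2DKO arrays, and the Sos1KO triangle is low for Hoxb6, Hoxb9, Hoxc6, Hoxd10, Hoxd11 and Hoxd13.

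HoxC members differed mainly through the same Sos1KO array. Hoxc6, active in the chest region, read 9.98, 9.66 and 10.42 in WT, 10.17, 10.13 and 7.57 in Sos1KO, 9.86, 10.69 and 10.05 in Sos2KO and 9.93, 10.28 and 9.86 in Sos1/2DKO. A single array stood more than 2 units below the other 11. The log2 fold change in Sos1KO against WT was -0.73 (SE 0.54, limma adjusted p = 0.778) and turned to 0.13 without that array. All 9 HoxC members were below 0 in Sos1KO against Sos2KO, with a median of -0.46 where the median over all genes was -0.03, and the lowest limma adjusted p was 0.118, that of Hoxc12 (-0.74). Hoxc11 lay lower in Sos1KO than in WT (-0.61, limma adjusted p = 0.183) with no overlap, but it did not exceed the control level on any array. In Sos1/2DKO against WT, Hoxc5 was at -0.74 (limma adjusted p = 0.303) and Hoxc13, known from hair and nails, at 0.46 (limma adjusted p = 0.148), each without overlap, and the other 7 HoxC members lay between -0.22 and 0.06.

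By paralog number, the posterior members had the highest median in Sos1/2DKO against WT and against Sos1KO but not against Sos2KO. In Sos1/2DKO against WT the median log2 fold change was 0.25 over the 15 members of paralogs 9 to 13, with 11 above 0, 0.00 over the 7 of paralogs 6 to 8 and -0.07 over the 11 of paralogs 1 to 5. Against Sos1KO the 3 medians were 0.26, -0.10 and -0.08, and against Sos2KO 0.12, -0.31 and 0.12. The comparisons share the Sos1/2DKO arrays, and no test was made of these medians. Sos1/2DKO and WT arrays did not overlap for 6 members that were higher (11.9% of all genes) and 5 that were lower (12.6%). The 6 were Hoxa10, Hoxc13, Hoxd8, Hoxd9, Hoxd10 and Hoxd13, and the 5 were Hoxb6, Hoxb7, Hoxb8, Hoxb9 and Hoxc5.

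In the other pairs the counts of members without overlap were as follows. Sos1/2DKO lay above Sos2KO for 7 members (10.2% of all genes), Hoxa5, Hoxa6, Hoxa10, Hoxb2, Hoxb5, Hoxd9 and Hoxd10, and below it for 3 (9.41%), Hoxb8, Hoxc5 and Hoxc12. It lay above Sos1KO for 4 members (6.45%), Hoxa10, Hoxd10, Hoxd11 and Hoxd13, and below it for 1 (4.94%), Hoxb3. Only Hoxa10 and Hoxd10 thus had all Sos1/2DKO arrays above all arrays of each other group. The share of all genes with this pattern was not counted, so whether Hox genes show it more often is not known.

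Sos2KO lay above WT for 3 members (9.47% of all genes), Hoxb1, Hoxb8 and Hoxc13, and below it for 5 (10.7%), all of paralogs 1 to 5, namely Hoxa2, Hoxa3, Hoxa5, Hoxb2 and Hoxb5. Sos1KO lay above WT for 2 members (10.4%), Hoxc13 and Hoxd8, and below it for 1 (11.5%), Hoxc11. Sos1KO lay above Sos2KO for 3 members (13.6%), Hoxa2, Hoxa5 and Hoxb2, and below it for 3 (12.3%), Hoxb8, Hoxc11 and Hoxc12. Over the 6 arrays with Sos1 deleted against the 6 without, 0 members lay wholly above (1.75%) or below (2.69%), and for Sos2 deletion likewise 0 (0.344% and 0.436%).

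Markers of other cell types differed in Sos1/2DKO against WT too, and some of them also in Sos1KO. Of 8 chondrocyte markers 3 rose against WT in the limma fit, where 1.78% of all genes did, Comp (3.06, adjusted p = 0.0214), Hapln1 (2.96, adjusted p = 0.0482) and Col9a1 (1.07, adjusted p = 0.0145). The array mean of the list was 6.02 to 6.10 in WT, 5.90 to 7.28 in Sos1KO, 5.94 to 6.08 in Sos2KO and 6.53 to 8.17 in Sos1/2DKO, and 7 of 8 members exceeded the control level. Within Sos1/2DKO the means were 8.17, 7.75 and 6.53 for replicates 1, 2 and 3. Replicate 3, the array highest for Hoxd10, Hoxd11 and Hoxd13, was the lowest of this group for cartilage, though above every WT array. Hoxa10 went the other way, with 9.33, 9.12 and 9.08 on replicates 1, 2 and 3, the order of the cartilage means. Of 7 epithelial markers 2 fell against WT in the limma fit, where 4.16% of all genes fell, Krt18 (-1.99, adjusted p = 0.0172) and Krt19 (-1.34, adjusted p = 0.0119). In the same limma comparison 1 of 8 endothelial markers fell, Emcn (-2.14, adjusted p = 0.0203), 1 of 5 neural progenitor markers, Nes (-2.39, adjusted p = 0.00434), and 1 of 7 neuron markers, Tubb3 (-1.40, adjusted p = 0.00652). Of the 9 fibroblast markers 1 fell, Thy1 (-1.54, limma adjusted p = 0.0183), which was also lower than in Sos2KO (-2.07, limma adjusted p = 0.00752). In Sos1/2DKO against WT the list medians were 0.14 (epithelial), -0.01 (endothelial), -0.08 (neural progenitor), 0.09 (neuron) and 0.09 (fibroblast). Members with a mean above the control level numbered 5 of 7 epithelial, 3 of 8 endothelial, 3 of 5 neural progenitor and 3 of 7 neuron markers. Some of these falls were also seen in Sos1KO. Mean Krt19 was 4.84 in Sos1KO and 4.83 in Sos1/2DKO against 6.17 in WT, and mean Emcn 5.07 and 4.87 against 7.01. In Sos1KO against WT 1 of 7 epithelial markers was called lower (limma adjusted p = 0.0454), where 0.502% of all genes were. So was 1 of 5 neural progenitor markers (limma adjusted p = 0.0396). The part of other cell types in the Hox values was not tested.

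No Hox gene was called for the main effect of either deletion or for their interaction. For the main effect of Sos1 deletion the nearest were Hoxd10 (0.81, SE 0.25, limma adjusted p = 0.0577) and Hoxb8 (-0.50, SE 0.16, limma adjusted p = 0.0681), and Hoxb9 had -1.14 (limma adjusted p = 0.162). For Sos2 deletion Hoxa5 had -0.79 (SE 0.25, limma adjusted p = 0.226) and Hoxd13 1.10 (limma adjusted p = 0.317). The interaction, which asks whether the double deletion departs from the sum of the single ones, was 1.87 for Hoxd10 (SE 0.50, limma adjusted p = 0.907), 1.81 for Hoxa10 (SE 0.54, limma adjusted p = 0.907) and 1.94 for Hoxd13. These values of Hoxd10 and Hoxa10 were the 2 with an unadjusted p under 0.05, at 0.00254 and 0.00522.

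Hox levels differed more between cultures of the same genotype than those of most genes. The residual SD within groups had a median of 0.361 over the 33 members and 0.243 over all genes. Of the members, 14 (42.4%) lay in the tenth of genes with the largest residual SD, above 0.428. Among genes whose mean exceeded the control level the share was 13 of 30 (43.3%) for Hox genes and 13.1% for all. Hoxd11 (1.28), Hoxd13 (1.10), Hoxb9 (1.02), Hoxb6 (0.84), Hoxc6 (0.81) and Hoxc8 (0.80) varied most. For Hoxc6, Hoxb6 and Hoxc8 the group SD was 1.49, 1.43 and 1.34 in Sos1KO, where replicate 3 was low. In the other groups it was 0.23 to 0.44, 0.13 to 0.72 and 0.24 to 0.76. Hoxd11 and Hoxd13 varied in the other groups too, with SDs of 0.80 to 1.44 and 0.81 to 1.28. The spread of all members without Sos1KO replicate 3 was not examined.

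Of the 12 arrays, Sos1KO replicate 3 had the most members far below the others of its group. On it 11 of 33 members (33.3%) lay at least 1 log2 unit below the mean of the other 2 Sos1KO arrays, where 1.11% of all genes did, and 0 lay as far above. The 11 were Hoxa10, Hoxb6, Hoxb9, Hoxc4, Hoxc5, Hoxc6, Hoxc8, Hoxc10, Hoxd10, Hoxd11 and Hoxd13. The largest gaps were those of Hoxd11 (-2.73), Hoxc6 (-2.58), Hoxb9 (-2.56), Hoxb6 (-2.48) and Hoxc8 (-2.16). The median gap was -0.34 over paralogs 1 to 5, -0.79 over paralogs 6 to 8 and -0.79 over paralogs 9 to 13. Hoxa2 and Hoxa3 were not low there. For these 2 genes Sos1KO replicate 1 was the array that stood apart, 1 unit or more below the other 2, with deviations of -1.22 and -1.11. Hoxa2 read 8.75 on replicate 3, the highest of all 12 arrays, and 8.52 on replicate 2, while Hoxa3 read 6.58 and 6.76 on them.

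The Sos1KO replicate 3 array also differed in other factors of body position, named here after their values were seen. Its level of Zic1, a factor of the dorsal midline and somites, was 10.10 against 7.72 to 9.39 on the other 11 arrays, and that of Tbx15, a factor of trunk skin and skeleton, was 11.04 against 8.94 to 10.52. Shox2, a limb and jaw factor, was at 4.42 against 4.75 to 7.48. The limb and shoulder factor Emx2 was at 6.21 against 6.28 to 8.35. Each was the lowest of the 12, with the next lowest value on a Sos1/2DKO array. Dap was 9.29 on this array, the highest of all, and the replicate correlations of the Sos1KO group were 0.977 to 0.983, within the 0.955 to 0.987 of all groups.

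Other arrays departed in fewer members. On Sos1KO replicate 1, 7 members were at least 1 unit above the mean of the other 2 arrays (21.2%, where 1.43% of all genes were), a mean that holds the low replicate 3, and 2 were as far below. On Sos1KO replicate 2 there were 4 as far above, Hoxa10, Hoxb6, Hoxc6 and Hoxd11, beside the same low array. On Sos2KO replicate 2, Hoxd11 (-2.25) and Hoxd13 (-1.05) were at least 1 unit below the other 2 arrays, and on Sos2KO replicate 1 Hoxd13 was too (-1.17). The means used for both arrays hold Sos2KO replicate 3, which was high for these genes. On Sos1/2DKO replicate 1, Hoxb9 (-2.17), Hoxc8 (-1.25) and Hoxd13 (-1.25) were at least 1 unit below the other 2 arrays of the group, with 0 as far above. For Hoxd13 the mean of those 2 holds the high Sos1/2DKO replicate 3. On Sos1/2DKO replicate 3, Hoxd13 (2.09), Hoxa13 (1.71), Hoxd11 (1.39) and Hoxb9 (1.21) were as far above and Hoxa3 (-1.30) below. Its median deviation was 0.38 for paralogs 9 to 13 and -0.36 for paralogs 1 to 5. The mean it is set against holds Sos1/2DKO replicate 2, which deviated the other way. On replicate 2 these medians were -0.40 and 0.36, with Hoxa13 at -1.37 and Hoxa2 at 1.37. In WT, replicate 2 was at least 1 unit higher for Hoxd11 and Hoxd13, and Sos2KO replicate 3 was so for the same 2 genes. On Sos1KO replicate 1 both were at least 1 unit above the other 2 arrays too, by 1.29 for Hoxd11 and 1.00 for Hoxd13, beside the low replicate 3.

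**Figure D4:**
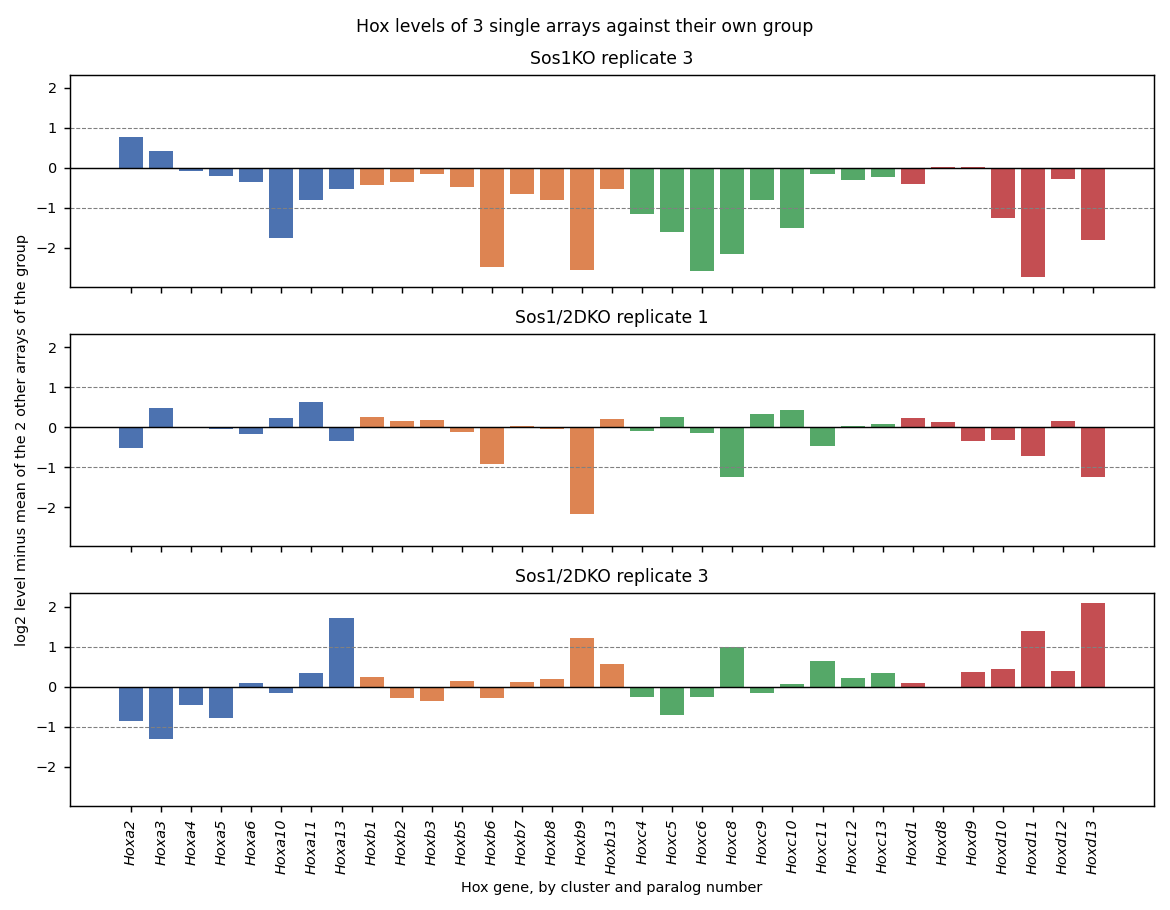
Log2 level of each Hox gene on 3 single arrays minus the mean of the 2 other arrays of the same group (vertical axis), by cluster in colour. Dashed lines mark 1 unit in each direction. Sos1KO replicate 3 is low from Hoxb6 to Hoxc10 and at Hoxa10, Hoxd10, Hoxd11 and Hoxd13, and Sos1/2DKO replicate 3 is high at Hoxa13, Hoxd11 and Hoxd13.

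Partners and regulators of HOX proteins were examined through lists. Of 8 measured HOX cofactors, 1 was called in Sos1/2DKO against WT, the TALE homeodomain factor Meis1, where 5.94% of all genes were called and 4.16% were lower. It read 7.98, 8.35 and 7.41 in Sos1/2DKO, 8.97, 9.17 and 9.21 in WT, 9.06, 8.66 and 8.52 in Sos1KO and 8.07, 8.01 and 8.85 in Sos2KO. It fell by 1.20 on the log2 scale (SE 0.26, limma adjusted p = 0.0203), with every Sos1/2DKO array below every WT and Sos1KO array. Pbx3, another cofactor, read 6.55, 6.99 and 7.85 in Sos2KO against 8.15, 8.31 and 8.67 in WT (-1.25, SE 0.29, limma adjusted p = 0.278) and did not pass. The median of the 8 cofactors in Sos1/2DKO against WT was -0.35.

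Of 23 Polycomb genes, which keep Hox clusters silent, 2 fell in Sos1/2DKO against WT, where 4.16% of all genes fell. They were Ezh2, the H3K27 methyltransferase (-0.86, SE 0.17, limma adjusted p = 0.0127), and its partner Suz12 (-0.81, SE 0.21, limma adjusted p = 0.0423). Ezh2 also fell in Sos1KO against WT (-0.88, limma adjusted p = 0.0453), where 0.502% of all genes fell. Phc2 fell in Sos1/2DKO against Sos2KO (-0.73, limma adjusted p = 0.0344), and Bmi1 was higher in Sos1KO than in Sos2KO (1.14, limma adjusted p = 0.0394). For the main effect of Sos1 deletion 2 of the 23 fell, Ezh2 (-0.57, limma adjusted p = 0.00821) and Phc2 (-0.53, limma adjusted p = 0.0195), where 5.63% of all genes fell. The list medians in Sos1KO, Sos2KO and Sos1/2DKO against WT were -0.07, -0.25 and -0.13.

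Of 12 Trithorax genes and H3K27 demethylases, which keep Hox clusters active, 3 fell in Sos1/2DKO against WT, where 4.16% of all genes fell. These were the MLL partner Psip1 (-1.45, SE 0.29, limma adjusted p = 0.0141) and the complex subunits Wdr5 (-0.71, limma adjusted p = 0.0426) and Dpy30 (-0.63, limma adjusted p = 0.0302). In Sos1/2DKO against Sos2KO, 1 of the 12 fell (2.8% of all genes), Psip1 (-1.27, limma adjusted p = 0.024). In the same comparison 1 rose (3.33%), Kmt2c, a methyltransferase of enhancers (1.09, limma adjusted p = 0.0399). Of 10 upstream regulators of the clusters 0 were called in any of the 9 comparisons. The hindbrain factor Egr2, also an early response gene of growth factor signalling, had the lowest adjusted p against WT, with -1.53 in Sos1/2DKO (SE 0.48, limma adjusted p = 0.0875).

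Within and beside the clusters few other transcripts were named by the annotation. Of 19 non-coding RNAs 2 were measured and 0 were called. Hoxa11os, the antisense RNA of Hoxa11, was at -0.57 in Sos1KO against WT (limma adjusted p = 0.238), and since the probe positions were not known, its signal was not told apart from that of Hoxa11. Hoxd3os1 stayed below the control level, between 3.25 and 4.14. Of 9 flanking genes only Skap2, beside the anterior end of the HoxA cluster, was called. It was higher in Sos1/2DKO than in Sos2KO (1.12, SE 0.21, limma adjusted p = 0.0126), in Sos1KO than in Sos2KO (1.13, limma adjusted p = 0.0206) and for Sos1 deletion as a main effect (0.86, limma adjusted p = 0.00393). The share of all genes called higher in these 3 comparisons was 3.33%, 2.8% and 4.71%.

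Few other transcription factors of position were called. Among 26 limb and trunk factors, 0 were called in the 6 pairwise comparisons and 1 for the main effect of Sos1 deletion, Tbx15 (0.94, SE 0.21, limma adjusted p = 0.0125), where 4.71% of all genes were higher. Emx2 was at -1.42 in Sos1/2DKO against Sos2KO (SE 0.39, limma adjusted p = 0.0503). Of 13 head factors, Dlx5, a jaw and bone factor, was higher in Sos1/2DKO than in Sos2KO (1.00, SE 0.22, limma adjusted p = 0.0194), where 3.33% of all genes were. Of 10 visceral factors, Foxf1, of gut and lung mesenchyme, was higher in Sos1KO than in Sos2KO (1.08, SE 0.26, limma adjusted p = 0.0406), where 2.8% were. For the main effect of Sos1 deletion 1 of 13 head factors was called higher (limma adjusted p = 0.0327), where 4.71% of all genes were. So was 1 of 10 visceral factors (limma adjusted p = 0.0103). Single arrays again stood out: Pax1, a factor of the ventral vertebrae, read 8.77 on Sos1/2DKO replicate 2 against 6.31 to 7.47 on the other 11, and Barx1, a jaw and stomach factor, read 8.47 on Sos1/2DKO replicate 1 against 5.55 to 6.67. Both were named after their values were seen.

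**Figure D5:**
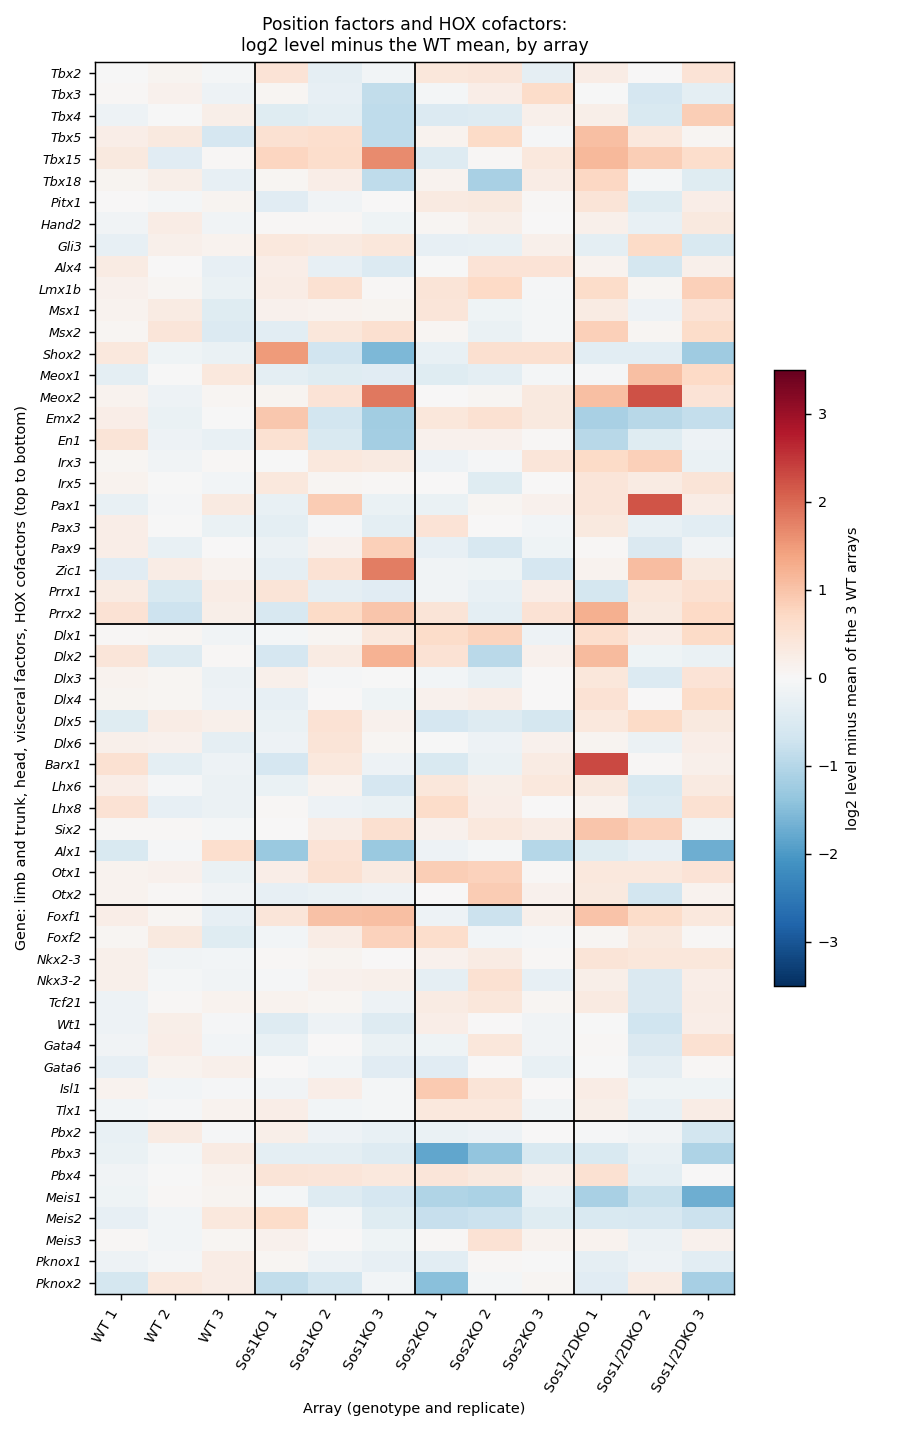
Log2 level of the measured limb and trunk, head and visceral position factors and HOX cofactors (rows, from top to bottom) on each array, minus the mean of the 3 WT arrays. Tbx15 is red on all 6 arrays with Sos1 deleted, Meis1 is blue on the 3 Sos1/2DKO arrays, and Pax1, Barx1, Meox2 and Zic1 are red on single arrays.

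The authors' deposited tables list probe sets up to an adjusted p of 0.25 against WT. For Sos1/2DKO the authors' deposited table holds 4 Hox genes, Hoxa10 (1.08, adjusted p = 0.0535), Hoxd10 (1.29, adjusted p = 0.0981), Hoxc5 (-0.74, adjusted p = 0.204) and Hoxd13 (1.83, adjusted p = 0.248). For Sos1KO the authors' deposited table holds 2, Hoxc11 (-0.61, adjusted p = 0.12) and Hoxd8 (0.53, adjusted p = 0.206). For Sos2KO the authors' deposited table holds 0 among its 59 probe sets. None of these 6 has an adjusted p under 0.05 there.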

How the data were processed

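Per the labels and the submitters' processing notes, the authors hybridised RNA of 12 cultures to Affymetrix arrays and deposited log2 RMA values made in R 3.6.3. The sources used here name no genome build. Array medians ran from 5.82 to 6.01; precision is limited by having 3 arrays a group. The authors' deposited limma tables hold log2 fold changes, p-values and a t and B score; their fold changes equal group mean differences of the value table to within 6.22e-09, which fixes scale and direction.

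Of 29129 probe sets, 19572 had 1 gene symbol and 9557 had none or several in the platform annotation; for 55 genes the probe set of highest mean was kept, leaving 19505. The fit used limma 3.58.1 (R 4.3.3) with 1 mean per group (8 residual degrees of freedom), moderated by empirical Bayes, with two-sided contrasts and Benjamini-Hochberg adjustment over all genes. The fit was tested on simulated data. A member's array values are given if it was called, or if it was among the 3 largest differences of a pairwise comparison with a group mean above the control percentile; exceptions are named. From each list up to 4 members of lowest adjusted p were named.

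Members and lists were chosen with earlier results of these data known. The spike-in counted as high where Dap exceeded the highest WT array by over 1 log2 unit. Other settings tried were median centring, cyclic loess, leaving out dim genes (mean below percentile 30), every probe set kept, a robust prior with a trend, array weights, the 2 groups alone, a replicate block, a spike-in term and each array left out. Terms for embryo sex and high-GC background, and fits within the spike-in batches, were chosen after seeing the data. Same-numbered arrays deviated together for WT and Sos2KO alone (correlations 0.11, 0.11 and 0.30), from the data, not the labels. Protein sequences were not analysed here.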

Additional observations from a re-analysis of the deposited data

How the results depend on the processing

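Directions and calls of the named Hox genes held in most settings: of the single-gene values under an alternative, 367 kept direction and side of the threshold, 16 passed where the reported fit did not, 6 no longer passed and 4 reversed. The 4 were Hoxc6 (0.13) and Hoxb6 (0.12) in Sos1KO against WT, each without Sos1KO replicate 3 and on the arrays without the spike-in; with each array left out they ran from -1.17 to 0.13 and from -1.16 to 0.12. Of the counts of called members, 142 stayed within 1.5 times and 31 did not.

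For Sos1/2DKO against Sos2KO the count of 1 became 2 with cyclic loess, 2 with median centring, 3 without dim genes, 2 with the 2 groups alone, 2 with the spike-in term (Hoxb6 and Hoxb9, lower, in place of Hoxd10), 0 with array weights and 0 with the high-GC term, and 0 to 2 with each array left out. For Sos1/2DKO against WT the count of 0 became 1 without dim genes, 2 with the 2 groups alone, 1 with the spike-in term and 0 to 1 with arrays left out. For Sos1KO against WT it became 1 with array weights (Hoxc11). For Sos1KO against Sos2KO it became 3 with array weights, 1 with the 2 groups alone, 1 with the spike-in term, 4 on the arrays with the spike-in and 0 to 1 with arrays left out. For the main effect of Sos1 deletion it became 1 with median centring, 1 without dim genes, 2 with array weights, 3 with the spike-in term and 0 to 2 with arrays left out. Within the spike-in batches Sos1KO and Sos1/2DKO each keep a lone array, which is assumed to vary like the Sos2KO arrays. The calls for Sos1/2DKO against Sos2KO ended without Sos2KO replicate 1 or 2. The cause of these moves was not tested. No scaling moved the median of all genes by over 0.1.

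Same-numbered arrays had deviations correlated from -0.35 to 0.30, above 0.1 in 6 of 18 pairs. Every pair passed 0.1 for WT with Sos2KO, and for no other 2 groups. In Sos2KO against WT the replicate block left 0 members called, with Hoxa5 at -1.17 (limma adjusted p = 0.309), and changed no call there. With the replicate block the count for Sos1KO against Sos2KO was 1 in place of 0 (Hoxa5, 1.22, limma adjusted p = 0.0397), and Hoxd10 stayed called in Sos1/2DKO against Sos2KO (limma adjusted p = 0.0221).

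No Sos2KO array lacks the spike-in and no WT array has it, so for that pair the batch and the genotype cannot be told apart. With 3 arrays a group and Hox genes that vary widely within groups, a difference that missed the threshold is not shown to be absent, and values near the control level understate changes.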
